A study of Mus musculus with 4 samples.

Results

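The Sall family of the mouse comprises Sall1, Sall2, Sall3 and Sall4, and chromatin accessibility at these 4 of 21938 protein-coding genes was examined in posterior forelimb buds with and without Sonic hedgehog (SHH). Every ATAC-seq peak that overlapped the body of a Sall gene, or the 100 kb on either side of it, was taken. This gave 53 of 75101 peaks from 4 libraries, which merged into 28 of 44692 regions. ATAC-seq uses a transposase, Tn5, that inserts sequencing adapters where DNA is exposed. The wild-type (WT) libraries came from 2 embryos and the Shh-/- libraries from 2 embryos that carry a null allele of Shh on both chromosomes, all on a Swiss Webster background at E10.5 (35 somites). Each library was made from the posterior part of both forelimb buds of a single embryo, with 5000 cells in the reaction and 18 cycles of PCR. No sorting of cells is described, so each list can mix mesenchyme with the other cells of the bud.

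SALL proteins are zinc finger transcription factors whose N-terminus recruits the NuRD complex, a corepressor that contains histone deacetylases. In the limb bud, Sall1 and Sall3 are expressed in the distal mesenchyme and Sall4 acts early with Tbx5 and Gli3 in setting out anterior elements, while Sall1 responds to SHH in several tissues. SHH prevents the processing of GLI proteins into repressors, so embryos without SHH keep GLI repression in the posterior bud. Human SALL1 and SALL4 mutations cause syndromes with limb malformations (Townes-Brocks and Duane-radial ray syndrome).

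All 4 genes lie on the minus strand of mm10. In GENCODE M21, Sall1 is at chr8:89027235-89044162, Sall2 at chr14:52311172-52328762 and Sall4 at chr2:168748332-168767943, and the position of Sall3 is given with its peaks. The surroundings differ. The Sall1 window holds no other protein-coding gene, the Sall3 and Sall4 windows hold 1 each, Atp9b and Atp9a, and the Sall2 window holds 8.

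The sequences that best show where peaks lie are the 250 bases before each RefSeq transcription start site (TSS) of Sall1, because only some of these starts were covered by peaks. They are given 5′ to 3′ on the minus strand, from GRCm38.p6, in the RefSeq set, and capitals mark bases covered by a peak in each of the 3 libraries with peaks there (both WT libraries and Shh-/- replicate 2).
Sall1, before the TSS at 89044162 (chr8:89044163-89044412): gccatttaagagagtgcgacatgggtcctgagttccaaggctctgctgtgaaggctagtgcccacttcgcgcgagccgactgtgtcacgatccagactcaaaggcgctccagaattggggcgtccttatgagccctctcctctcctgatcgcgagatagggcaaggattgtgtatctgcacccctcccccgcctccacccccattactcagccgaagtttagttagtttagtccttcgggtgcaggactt
Sall1, before the TSS at 89043512 (chr8:89043513-89043762): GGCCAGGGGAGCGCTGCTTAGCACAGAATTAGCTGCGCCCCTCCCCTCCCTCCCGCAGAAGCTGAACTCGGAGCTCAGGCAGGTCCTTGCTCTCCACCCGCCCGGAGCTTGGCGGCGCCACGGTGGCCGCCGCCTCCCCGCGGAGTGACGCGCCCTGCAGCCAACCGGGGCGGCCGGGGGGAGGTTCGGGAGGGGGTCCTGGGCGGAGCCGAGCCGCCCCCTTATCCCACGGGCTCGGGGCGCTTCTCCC
Sall1, before the TSS at 89042862 (chr8:89042863-89043112): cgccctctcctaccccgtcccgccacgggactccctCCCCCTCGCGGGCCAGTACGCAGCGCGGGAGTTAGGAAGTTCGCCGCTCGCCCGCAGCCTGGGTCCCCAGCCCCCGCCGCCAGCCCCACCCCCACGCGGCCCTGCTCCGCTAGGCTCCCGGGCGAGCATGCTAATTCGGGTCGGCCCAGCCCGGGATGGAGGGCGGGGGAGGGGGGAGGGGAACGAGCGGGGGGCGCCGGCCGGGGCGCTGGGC

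The outermost of these starts, which is the only Sall1 TSS in the GENCODE set, had no base of its 250 within a peak in any library. The 2 inner starts, which lie in intron 1 of the GENCODE transcript, were covered over 250 and 214 bases in all 3 libraries. GC content was 56.4% in the outer stretch and 74.4% and 78.4% in the inner ones. For contrast, the 250 bases before the inner start of Sall2 (TSS at 52316323, chr14:52316324-52316573, minus strand) had 64.4% GC, and no base of them lay in a peak of any library.
Sall2, before the TSS at 52316323: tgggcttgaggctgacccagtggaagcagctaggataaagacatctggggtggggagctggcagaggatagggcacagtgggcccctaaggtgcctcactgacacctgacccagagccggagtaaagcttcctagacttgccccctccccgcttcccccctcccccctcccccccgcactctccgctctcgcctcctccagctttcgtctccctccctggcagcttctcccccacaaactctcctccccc

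Outside the Sall promoters, a pair of sites is shown as examples of regions called in both genotypes, the first because it is the only such site in the Sall1 window and the second because it is the only one that Shh-/- replicate 1 called away from a promoter. They are 120 bases around the summit in WT replicate 1, on the plus strand of mm10, with capitals where every library that called the region had a peak. The Sall1 site lies 18.2 kb downstream of the TSS, past the end of the gene, and was called in WT replicate 1 and Shh-/- replicate 2. The Sall4 site lies in an intron of the neighbour Atp9a, 97.2 kb from the nearest Sall4 TSS, and was called in WT replicate 1 and both Shh-/- libraries.
Sall1 downstream site (chr8:89025913-89026032): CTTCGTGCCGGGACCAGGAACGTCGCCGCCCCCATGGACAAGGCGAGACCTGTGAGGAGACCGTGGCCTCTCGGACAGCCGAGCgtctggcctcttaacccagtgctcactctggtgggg
Sall4 window, Atp9a intron (chr2:168669760-168669879): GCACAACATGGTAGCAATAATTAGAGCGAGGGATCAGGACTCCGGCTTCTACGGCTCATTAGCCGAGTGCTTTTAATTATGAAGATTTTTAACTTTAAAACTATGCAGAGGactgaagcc

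A peak list holds no read counts, so the depth of a library could not be read from the files, and a site without a call is not thereby closed chromatin. The lists were of unequal size, from 5589 peaks in Shh-/- replicate 1 to 39080 in WT replicate 1, and Shh-/- replicate 1 stands apart as the smallest. Limb bud mesenchyme markers such as Prrx1 and Msx1 had a promoter peak for 9 and 5 of 9 genes in WT replicates 1 and 2. In Shh-/- replicates 1 and 2 the counts were 3 and 6. Over all protein-coding genes the share with a promoter peak was 60.4% and 39.2% in the WT replicates. It was 17.3% and 51.3% in the Shh-/- replicates, and the marker counts of each list are to be read beside these shares. The blood genes Hba-a1 and Hbb-bt and the endothelial genes Pecam1 and Cdh5 had a promoter peak in none of the libraries. Of 5 genes each for blood and endothelium at most 1 was called in a library. For blood this was Klf1, at 10.1% and 98.2% of the WT lists and 38.0% of that of Shh-/- replicate 2 (0% is the best score). For endothelium it was Kdr, at 19.9% in WT replicate 1 and 33.1% in Shh-/- replicate 2. Tbx5, which defines the forelimb, was called in WT replicate 1 alone, and of the hindlimb genes Pitx1 and Tbx4, 2 of 2 were called there and 1 of 2 in Shh-/- replicate 2. Of 6 ectoderm genes, the largest list of either genotype called 2 and the other two libraries called none. For muscle progenitors the counts were 3, 1, 0 and 3 of 5, and for neural crest and nerve 3, 1, 0 and 1 of 3, with the WT libraries given first and each genotype in order of replicate number. The part of list size and of other cell types in the results at the Sall genes was not tested.

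To ask whether the Sall loci as a group held more peaks with SHH, the peaks in the 4 windows were counted in each library. There were 27 and 9 peaks in WT replicates 1 and 2, and 3 and 14 in Shh-/- replicates 1 and 2. The counts followed the size of the lists. As a share of the list, this was 0.691 and 0.752 Sall peaks per 1000 peaks in the WT replicates and 0.537 and 0.758 in the Shh-/- replicates. The highest and the lowest share were thus both Shh-/- libraries. The mean was 0.721 ± 0.0430 per 1000 (SD, n = 2) in WT and 0.648 ± 0.157 per 1000 (SD, n = 2) in Shh-/-. The difference of 0.0737 per 1000 was larger than the SD of the WT replicates and smaller than that of the Shh-/- replicates. A two-sided exact permutation test gave p = 1, with 0.333 the smallest value that 2 libraries against 2 allow. Without Shh-/- replicate 1 the difference was -0.0371 per 1000, so its direction rests on the smallest list.

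**Figure D1:**
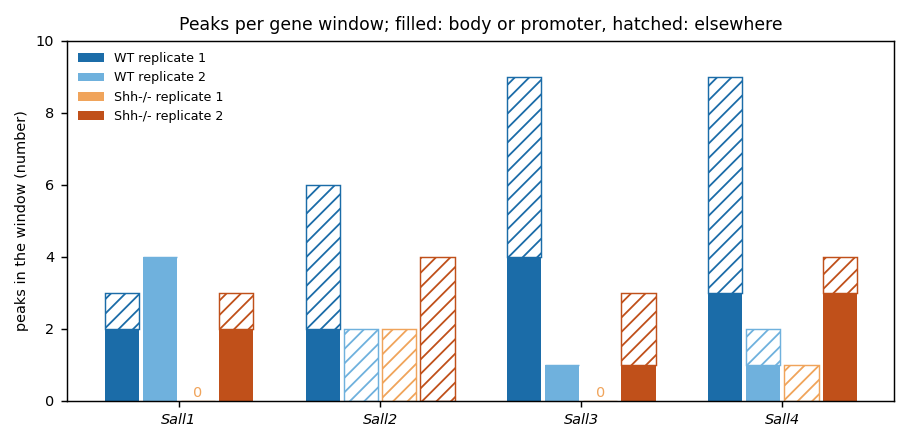
Number of peaks in the window of each Sall gene (vertical axis), with a bar for each library; the filled part counts peaks in the gene's body or promoter window and the hatched part peaks elsewhere in the window. WT replicate 1 had 9 peaks in each of the Sall3 and Sall4 windows, and Shh-/- replicate 1 had 0 in those of Sall1 and Sall3.

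The genes did not share the peaks evenly. The Sall1 window had 3 and 4 peaks in the WT replicates and 0 and 3 in the Shh-/- replicates. It was the only window in which the larger WT list did not have the most peaks, and the 4 peaks of WT replicate 2 all lay in the body or promoter. Across protein-coding genes, 1.40% had at least as many peaks in the body (3) as Sall1 had in WT replicate 2, 11.4% had at least the 2 that Sall1 had in Shh-/- replicate 2, and 27.1% had at least the 2 that it had in WT replicate 1. Sall2 had 6, 2, 2 and 4 window peaks, Sall3 had 9, 1, 0 and 3, and Sall4 had 9, 2, 1 and 4, in the same order of libraries. For comparison, the median protein-coding gene had 5, 2, 1 and 3 peaks in a window drawn in the same way. Sall4 had 3 peaks in its body in Shh-/- replicate 2, a number that 3.80% of genes reached there, but its 3 and 1 in the WT replicates were reached by 15.0% and 41.4% of genes. The other body counts of the family were reached by between 15.0% and 100% of genes. For each of the 4 genes the window counts of the genotypes overlapped. Two-sided exact permutation tests on the counts gave p = 0.667 for Sall1, Sall3 and Sall4 and p = 1 for Sall2. The smallest value possible was 0.333, except for Sall1, where tied counts made it 0.667 and the observed split already had the largest possible difference. These tests therefore cannot decide whether the genotypes differ. The counts were not scaled to the size of the lists.

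Where the 28 regions were called was described next. WT replicate 1 alone held 13 of them, or 46.4%, against 51.6% of all regions of the genome. A further 6 (21.4%) were called in WT replicate 1 and Shh-/- replicate 2 and nowhere else, against 11.0% of all regions. All libraries but Shh-/- replicate 1 shared 3 regions (10.7%, against 11.3%), and these 3 are the promoter regions of Sall1, Sall3 and Sall4. All 4 libraries shared 2 regions (7.14%, against 7.97%), and neither belongs to a Sall gene, as described below for Sall2. The remaining regions were 2 in WT replicate 2 alone, 1 in Shh-/- replicate 2 alone and 1 in all but WT replicate 2. Regions called in both WT libraries and in neither Shh-/- library (WT-specific) made up 2.09% of all regions, and 0 of the 28 Sall regions were of this kind. The reverse, Shh-specific regions, made up 0.396% of all regions, and again the Sall count was 0. With 28 regions, a count of 0 is near both of these shares. Without WT replicate 2 the WT-specific count was 13, those called in WT replicate 1 alone, a pattern of 51.6% of all regions. It was 4 without Shh-/- replicate 2 and 3 without WT replicate 1. The shares of all regions with a library left out were not computed, so these counts do not set the Sall regions apart.

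**Figure D2:**
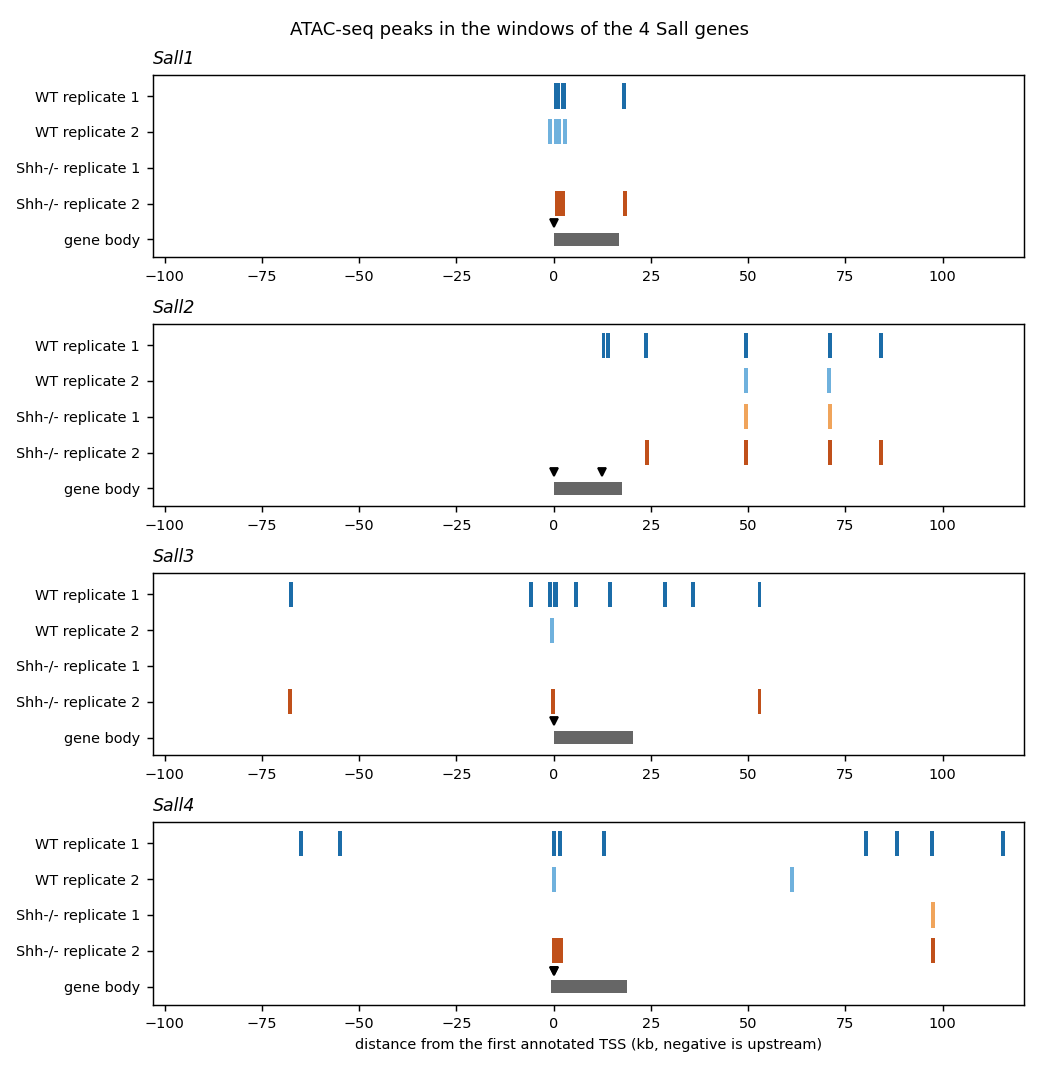
Peaks of the 4 libraries (rows, coloured bars drawn at least 1 kb wide) along the window of each Sall gene, by distance from the first annotated TSS in kb, with the gene body in grey and black triangles at the GENCODE TSSs. Sall1 peaks sit at the start of the gene and 18.2 kb downstream, whereas the Sall2 peaks shared by all 4 libraries sit beyond the 3′ end of the gene.

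By position, 6 of the 28 regions overlapped a Sall promoter window (2 kb before to 1 kb after a TSS), 5 more overlapped a Sall body only, 5 lay at the promoter of another gene, 6 in the body of another gene and 6 between genes. Of the 6 regions between genes, 5 were called in 1 library and 1 in 2 libraries. Of the 6 Sall promoter regions, 3 were called in 3 libraries and 3 in 1 library, and of the 5 at promoters of other genes, 3 were called in 2 libraries and 2 in all 4. These differences were not tested. Shares by position over all regions were not computed, so the counts do not show whether the Sall regions differ from the rest of the genome.

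Promoters were compared gene by gene, with each peak ranked by score within its own list, so that 0% is the best peak of the list. With promoter windows drawn at the GENCODE starts, a promoter peak was called in 10 of the 16 combinations of gene and library. When only the best 5589 peaks of a list were kept, as many as Shh-/- replicate 1 has, this count was 0, and without WT replicate 1 it was 6. The share of all protein-coding genes called at that list size was not computed, so the 0 cannot be read as particular to the Sall genes. In WT replicate 1, 4 of 4 Sall genes were called, against 60.4% of protein-coding genes. In WT replicate 2, 3 of 4 were called, against 39.2%, and in Shh-/- replicate 2, 3 of 4, against 51.3%. Shh-/- replicate 1 called 0 of 4, against 17.3% of protein-coding genes. Sall1, Sall3 and Sall4 thus had the same pattern, called in all libraries but Shh-/- replicate 1, which 21.1% of protein-coding genes also had. Sall2 was called in WT replicate 1 alone, a pattern of 8.80% of protein-coding genes.

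The value for Shh-/- replicate 1 can be set beside the rest of that list. Of 8596 regions called in the 3 other libraries, Shh-/- replicate 1 called 41.4%. The 3 Sall promoter regions ranked between 15.3% and 37.0% in WT replicate 1, and among the 2884 regions within that range Shh-/- replicate 1 called 12.7%. Their GC content ran from 57% to 71%, and of 5156 regions in that range it called 44.4%. Of the 1576 regions within both ranges it called 10.7%. Most regions of the rank of the Sall promoters were therefore missing from this list.

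**Figure D3:**
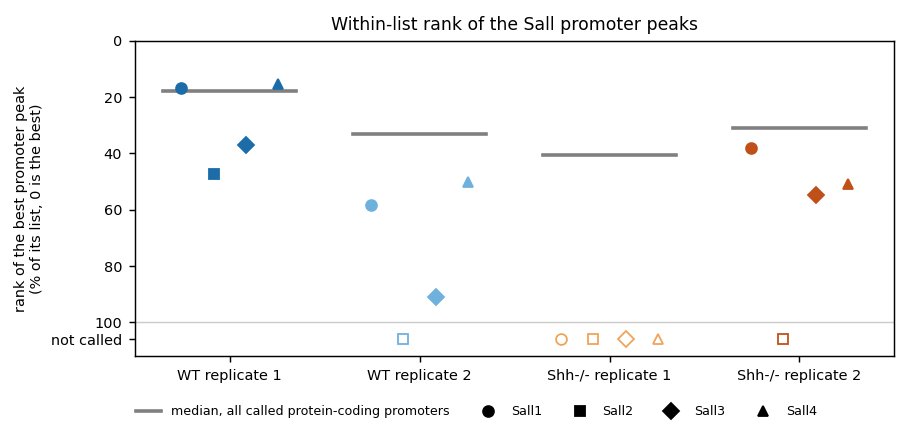
Rank of the best promoter peak of each Sall gene within the list of its library (vertical axis, percent of the list, 0 at the top is the best peak), with open symbols for promoters without a call and a grey line at the median of all called protein-coding promoters. Sall1 and Sall4 in WT replicate 1 sit above the line and every other called Sall promoter sits below it.

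The Sall1 promoter had its best peak at 16.9% of WT replicate 1, 58.3% of WT replicate 2 and 38.0% of Shh-/- replicate 2. In WT replicate 2 a better ranked peak, at 38.1% with its summit at 1217 bp, lay just outside the promoter window and was not counted. The peak of Shh-/- replicate 2, with its summit at 1195 bp, was counted because it was a broad call that reached into the window. Sall4 ranked at 15.3%, 50.3% and 50.7%. Sall3 ranked lower, at 37.0%, 91.1% and 54.8%. Sall2 ranked at 47.2% in WT replicate 1. The median called promoter of a protein-coding gene stood at 17.8% and 33.3% in the WT replicates and at 40.7% and 31.1% in the Shh-/- replicates. Sall1 and Sall4 in WT replicate 1 were thus close to the median, and the other called Sall promoters were below it. For Sall1 and Sall3 the percent rank in Shh-/- replicate 2 lay between those of the WT libraries, but a percent rank also depends on list size. Counted from the top of each list, the Sall1 peak stood at 6615.5 and 6983 in the WT replicates and 7007.5 in Shh-/- replicate 2. The Sall3 peak stood at 14442, 10901.5 and 10115 in the same order, so the order of the genotypes depended on the measure. For Sall4 the percent rank in Shh-/- replicate 2 was just below that in WT replicate 2 and further below that in WT replicate 1. From the top of each list it stood at 5997 and 6017 in the WT replicates and 9359.5 in Shh-/- replicate 2. With a single Shh-/- library calling these promoters, no difference between genotypes could be tested.

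**Figure D4:**
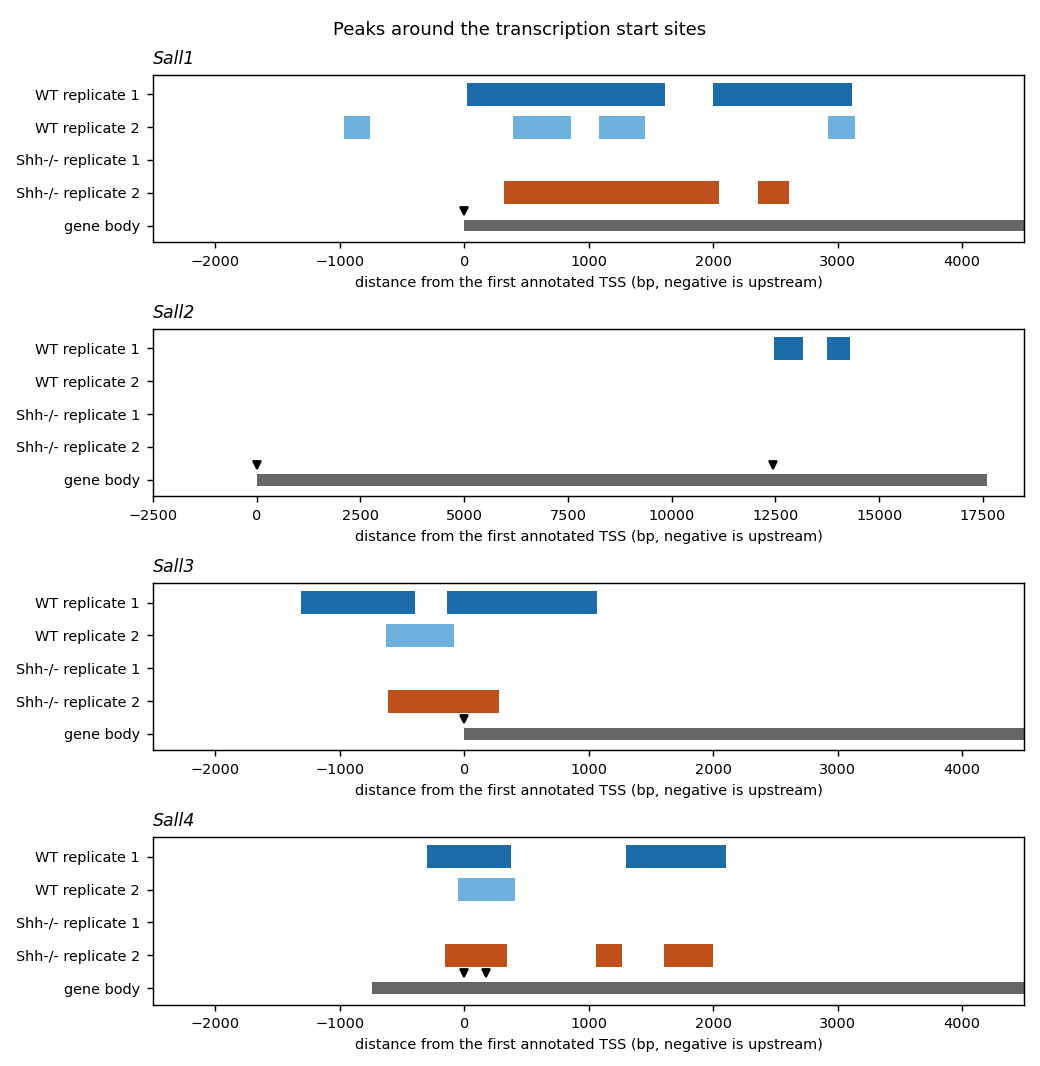
Peaks around the start of each Sall gene by distance from the first annotated TSS in bp (the Sall2 axis is longer, to show its inner TSS), with libraries as rows, the gene body in grey and GENCODE TSSs as black triangles. Apart from a peak of WT replicate 2 that lies 842 bp upstream, the Sall1 peaks shown lie downstream of the GENCODE TSS. In Sall4 a peak of 3 libraries lies across the start and further peaks lie inside the gene, and the outer TSS of Sall2 has no peak.

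Sall1, the family member known as a target of SHH in the limb, had most of its peaks inside the gene, apart from a peak upstream of it and a site past its end. A region of 3122 bp (chr8:89041020-89044141) covered exon 1, intron 1 and exon 2 and reached into intron 2. WT replicate 1 had a peak of 1596 bp here with a score of 168 and its summit 687 bp downstream of the GENCODE TSS. Shh-/- replicate 2 had a peak of 1724 bp with a score of 115 and its summit at 1195 bp. WT replicate 2 split the same stretch into a peak at 563 bp (score 41) and another at 1217 bp (score 66). The inner peak of WT replicate 2 thus had its summit next to that of Shh-/- replicate 2. Each of these 3 libraries had a further peak in intron 2, with summits at 2922 and 3008 bp in the WT replicates and at 2369 bp in the Shh-/- library. They ranked at 33.7% and 58.3% of the WT lists and at 94.8% of that of Shh-/- replicate 2. The peaks of WT replicate 2 and Shh-/- replicate 2 each overlapped that of WT replicate 1 but not each other. A peak 842 bp upstream of the TSS was called in WT replicate 2 alone, with the score of 14 that is the lowest of that list. The downstream site shown above (chr8:89025651-89026331) was called at 55.3% of the list of WT replicate 1 and 64.7% of that of Shh-/- replicate 2. It falls in the promoter window of the microRNA gene Mir8110.

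Sall2 had few peak calls of its own, 2 in WT replicate 1 and none elsewhere. No library had a peak at the outer TSS (52328762). At the inner TSS, WT replicate 1 had a peak of 699 bp (chr14:52315601-52316299) with a score of 45, over exon 1 of the short transcript and the start of exon 2. A second peak in exon 2 (chr14:52314454-52315009) had a score of 20, at 91.8% of the list. The other 3 libraries had no peak in the body or promoter of Sall2.

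The peaks of the Sall2 window were at its neighbours. The promoter shared by Rab2b, a small GTPase, and Tox4 (chr14:52278934-52279711) was called in all 4 libraries, at 1.50% and 14.9% of the WT lists and at 11.0% and 6.63% of the Shh-/- lists. The promoter of Chd8, a chromatin remodeler (chr14:52257413-52258230), was also called in all 4, at 2.47%, 9.22%, 40.7% and 4.41% in the same order. These are the best ranked regions of the Sall2 window in every library, and each ranked above every called Sall promoter of its own library. The promoter of Mettl3, an RNA methyltransferase, and a site in the body of Chd8 were called in WT replicate 1 (23.6% and 21.1%) and Shh-/- replicate 2 (78.7% and 59.3%).

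Sall3, at chr18:80966376-80986771, had a promoter region of 2379 bp (chr18:80985704-80988082) across its TSS, shared with the start of the noncoding gene Gm27239. WT replicate 1 had 2 peaks here, with summits 14 and 537 bp upstream of the TSS and scores of 60 and 45. WT replicate 2 had a peak with its summit 453 bp upstream and a score of 20, and Shh-/- replicate 2 one at 95 bp upstream with a score of 70. Each of these libraries had a summit upstream of the TSS, unlike at Sall1. Within the body, WT replicate 1 alone had a peak in intron 1 (37.0% of its list) and one in exon 2 (79.5%). The other regions of the window were the Atp9b promoter (chr18:80933567-80934156) and an intergenic site 67.8 kb upstream (chr18:81053919-81054814), each called in WT replicate 1 and Shh-/- replicate 2, and 3 intergenic regions of WT replicate 1. The Atp9b promoter was the best ranked region of the window in Shh-/- replicate 2, at 35.4%, and ranked at 37.0% in WT replicate 1. The site 67.8 kb upstream ranked at 33.7% in WT replicate 1 and 38.0% in Shh-/- replicate 2. Each rank is that of a single library of its genotype, and neither site was called in WT replicate 2 or Shh-/- replicate 1. One of the 3 intergenic regions, 35.9 kb downstream of the TSS (chr18:80950760-80951122), was the best ranked of the window in WT replicate 1, at 28.8%.

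Sall4, which acts in the early limb bud, had a promoter region of 709 bp across its 2 GENCODE starts, 168767029 and 168767201 (chr2:168766792-168767500), over exon 1 and the start of intron 1. The summits of WT replicates 1 and 2 lay 46 and 12 bp upstream of the inner start. The summit of Shh-/- replicate 2 lay 8 bp downstream of the outer start, and so further upstream than both WT summits. The scores were 188, 49 and 78. In intron 1, a site 1.70 kb from the TSS (chr2:168765096-168765898) was called in WT replicate 1 (22.3%) and Shh-/- replicate 2 (78.7%), and a weaker one nearby (chr2:168765934-168766142) in Shh-/- replicate 2 alone, with a score of 18, the lowest of that list. A region 12.8 kb into the gene (chr2:168754160-168754500) was called in WT replicate 1 alone, at 66.3%. The Sall4 promoter region and both intron 1 sites also fall in the promoter window of the noncoding gene Gm14261.

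The site in the Atp9a intron (chr2:168669535-168670138) had a pattern of its own among the 28. It ranked at 22.3% in WT replicate 1 with a score of 120, at 59.2% in Shh-/- replicate 1 with a score of 60 and at 94.8% in Shh-/- replicate 2 with a score of 24, and WT replicate 2 had no peak there. It is the only peak of Shh-/- replicate 1 in the windows apart from the Rab2b and Tox4 promoter and the Chd8 promoter. By percent rank both Shh-/- calls were below that of WT replicate 1. Counted from the top of each list, they stood at 3310.5 and 17491.5, against 8707.5 in WT replicate 1. The missing call of WT replicate 2 gives no rank, so the genotypes could not be put in order here. How many of all regions had this pattern was not counted. The remaining 6 regions of the Sall4 window, 4 in Atp9a and 2 upstream of Sall4, were called in a single library each, 5 in WT replicate 1 and 1 in WT replicate 2, with ranks from 25.1% to 98.5%.

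The sequence at the summits was searched for 3 motifs on both strands: TGGGTGGTC with at most 1 mismatch, to which GLI proteins bind, AGGTGTGA for T-box factors such as TBX5, and CTTTGAT for TCF/LEF factors. In 200 bp around the best summit, the GLI motif was found in 2 of 28 Sall regions (7.14%) and in 5.62% of all regions. These were the Rab2b and Tox4 promoter and the intergenic site 35.9 kb downstream of the Sall3 TSS. The T-box motif was found in 0 of 28 and in 0.935% of all regions. The TCF/LEF motif was found in 3 of 28 (10.7%) and in 2.39% of all regions, and all 3 lay in the Sall3 window and were called in WT replicate 1 alone. None of the sequences printed above holds any of the motifs, which 5.79%, 1.12% and 3.21% of RefSeq promoter sequences do in the order given. A match is a description of the letters and not a binding site. Median GC content was 55.8% in the Sall regions and 55.5% in all regions.

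Among all protein-coding genes, those most like each Sall gene were found by the mean difference in rank of the best promoter peak over the 4 libraries, with a missing call set to 100%. For Sall1 they were Fra10ac1, with a mean difference of 0 percentage points, and B230307C23Rik and Dennd5a, with 0.473 points each. For Sall3 they were Prdm6 and Tmem214 at 0 and Nkain1 at 0.824 points, and for Sall4 Pmepa1 and Sdhaf4 at 0 and Map3k6 at 0.176 points. For Sall2, 225 genes tied at 0 with a call in WT replicate 1 alone, so no gene stood out. Scores are whole numbers with many ties, which is why a difference of 0 can arise.

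Genes that work with the SALL proteins were set beside them. The 13 subunits of NuRD had a promoter peak for 13 and 10 genes in the WT replicates and for 4 and 13 in the Shh-/- replicates, where the shares over all protein-coding genes were 60.4% and 39.2% and 17.3% and 51.3%. Called in all 4 libraries were Mbd3, Gatad2a, Gatad2b and Rbbp4, with ranks from 0.517% to 18.1%. Chd4, the remodeler of the complex, ranked at 14.6%, 79.9% and 71.1% in the 3 libraries that called it, while Hdac1 ranked at 7.50%, 43.7% and 18.9%. Of 10 limb regulators, 9 and 6 were called in the WT replicates and 5 and 6 in the Shh-/- replicates, beside the same shares over all genes. Gli3, the main GLI repressor of the limb, ranked at 8.01%, 38.1%, 94.0% and 15.9%. Fgf10, Zbtb16, Irx3 and Irx5 were called in all 4 libraries as well. Hand2, Hoxa13 and Hoxd13 were called in WT replicate 1 alone, as Tbx5 was, and Grem1, a BMP antagonist, in WT replicate 2 (58.3%) and Shh-/- replicate 2 (64.7%).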

How the data were processed

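ATAC-seq libraries of 2 WT and 2 Shh-/- posterior forelimb buds took their genotype and replicate number from the sample titles. The authors deposited 1 mm10 peak list per library, called with MACS2 in windows of 200 bp, replicates not pooled. Each peak has a summit and a score, the authors' own value, whose scale the lists do not state. The submitters' processing notes name Bowtie2 2.2.5 and MACS2 2.1.0. Read filters and any Tn5 shift are not given in the sources used here. The lists hold no read counts, so the depth of each library is unknown from them and the limma analysis of signal was not repeated.

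Peaks overlapping by 1 bp were merged and annotated with GENCODE M21 (basic). Scores were used for ranks within a list, tied scores sharing their mean rank. The highest-scoring 5589 peaks of each list, the size of the smallest, gave lists of equal size. Sequences were read from GRCm38.p6, and promoter sequences of 2 of the 4 genes from RefSeq. Two-sided exact permutation tests were run on Sall peaks per 1000 peaks of a list and, for each of the 4 genes, on its window peaks. The smallest p was 0.333, or 0.667 for the Sall1 window peaks because of tied counts. The rest is description. Merging and the sorting of regions into WT-specific and Shh-specific were tested on simulated peaks, and the permutation tests on small examples. The ranking was not tested in this way. Named were the 4 genes, every region at their promoters or bodies, and, elsewhere, regions that both libraries of a genotype or at least 3 libraries called, and the best ranked of a window in a library. Named genes also include the 3 most like each by promoter rank. A few other regions (the Sall1 downstream site, the Mettl3 promoter, the site in Chd8 and the Sall3 site 67.8 kb upstream) were named after their values were seen. The genes, lists and rules were chosen with earlier results of these data known. Python 3.11.15, numpy 2.4.6, pysam 0.24.0 and matplotlib 3.10.9 were used.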

Additional observations from a re-analysis of the deposited data

How the results depend on the processing

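The difference in Sall peaks per 1000 peaks of a list, 0.0737 with all peaks, was 0 at equal list size and -0.00141 with scores of at least 50, so its direction was not stable, and the cause was not tested. It was 0.204 with 50 kb either side, 0.278 with 200 kb and 0.132 in gene bodies only. Leaving out each library in turn gave -0.0371 to 0.185, the lowest without Shh-/- replicate 1 and the highest without Shh-/- replicate 2. With the replicate block the value was again 0.0737 (exact permutation test, p = 1). The replicate numbers are only names in the labels, and the deviations of same-numbered libraries over regions had a correlation of 0.245.

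The 28 regions became 4 at equal list size, 16 with scores of at least 50, 10 in gene bodies only and 51 with 200 kb either side, since each setting takes fewer peaks or a wider window. They were 17 to 28 when a library was left out, the fewest without WT replicate 1. Regions in all 4 libraries, 2 with all peaks, were 1 with 50 kb and 0 in gene bodies, and 2 to 5 with a library left out, where 5 were shared by the rest without Shh-/- replicate 1. WT-specific regions were 0 to 13 and Shh-specific regions 0 to 1 with a library left out. The Shh-specific region without WT replicate 1 was the site in the Atp9a intron. A different one arose without Shh-/- replicate 1, the weaker site in the first intron of Sall4 that Shh-/- replicate 2 alone called. WT-specific regions were 13 without WT replicate 2, 4 without Shh-/- replicate 2 and 3 without WT replicate 1. Of all regions, 51.6% were called in WT replicate 1 alone, and shares of all regions with a library left out were not computed. The WT-specific and Shh-specific counts stayed at 0 in the other settings. Promoter calls, 10 with all peaks, were 0 at equal list size, 6 with scores of at least 50 and 6 to 10 with a library left out. The shares of all protein-coding genes at equal list size and with that score limit were not computed. The Sall4 promoter peak of WT replicate 2 had a score of 49, which 879 peaks share at the equal list size limit.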
